A study of Schizosaccharomyces pombe 972h- with 4 samples.

Results

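The cytosolic ribosomal protein genes of fission yeast (Schizosaccharomyces pombe) were taken as the array targets whose gene symbol begins with rpl, rps or rpp followed by a digit. The symbol was found through the systematic name in the study's gene tables. The copies used here hold rows for 1738 of the 4997 targets on the array, and 1621 targets could be matched to a reference gene. Of these, 47 met the pattern, and rpp21, a subunit of the tRNA-processing enzyme RNase P, was left out. This gave 46 targets for 45 genes, since rps1802 has 2 targets. They comprised 29 targets of the large (60S) subunit, 2 of them for the stalk proteins rpp0 and rpp103, and 17 targets of the small (40S) subunit. The reference gene table holds 141 nuclear genes with such a symbol, and the 45 genes measured here lie on chromosomes II (20 genes) and III (25 genes). The 62 on chromosome I are not analysed here. The reference gene table holds 51 on chromosome II and 28 on chromosome III, so these chromosomes are only partly covered.

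Cytosolic ribosomes translate the mRNAs made in the nucleus. Ribosomal proteins are assembled with ribosomal RNA into the large and the small subunit, which are needed in equal number, and their mRNAs are among the most abundant in growing yeast. In fission yeast many ribosomal proteins are encoded by a pair of near-identical genes, marked by the last digits of the symbol. In yeasts the ribosomal protein genes are well known to be expressed together and to be turned down under many stresses, alongside the genes for ribosome assembly.

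Messenger RNA was measured by 1 array in each of 4 conditions, as the single-channel (Cy3) brightness of 60-base probes. The wt strain was 972 (h-), and the deletion strain was DL1003 (h- Ofd2ΔKAN), which lacks Ofd2, an enzyme that uses 2-oxoglutarate, iron and molecular oxygen and acts on histone H2A. Exponentially growing cells in rich glucose medium (YES with supplements) at 30°C were kept for 90 min either in normal oxygen (20%) or in hypoxia (below 1%), and RNA of 2 experiments was pooled for each array. The comparison asks how transcript levels respond to hypoxia and whether the deletion alters the response. With 1 array per condition there is no biological replicate, no difference below carries a test, and an Ofd2Δ value describes 1 deletion strain. No target is paired with the ofd2 gene in the tables used, so the deletion itself was not checked.

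Each target was measured by 7 probes, each of which was spotted in 2 blocks of the array. The block values are technical repeats of 1 RNA pool. The median brightness of the 69954 gene spots was 7529 (wt, normal oxygen), 7045 (wt, hypoxia) and 6597 (Ofd2Δ, normal oxygen), but only 4009 for Ofd2Δ in hypoxia, against 112 to 126 in the control spots. The last array also carries a later image-extraction date in its file header than the other 3, so in every comparison that uses it (the Ofd2Δ hypoxia ratio and the strain comparison in hypoxia) the condition and that date cannot be told apart. On it the brightest spots stood less far above the middle: the 95th percentile was 3.46 times the median, against 4.59 to 4.99 times on the other arrays. Values called signals below were background-corrected, quantile-normalised over the 4 arrays and summarised per target. Hypoxia ratios are means over the 2 blocks.

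The ribosomal protein targets lay near the top of the array. Their signal stood at a median percentile of 96.0 among the 4997 targets, from 70.3 for rpl3801 to 99.5 for rpp0, and 34 of the 46 were above the 90th percentile. The median signal of the 46 targets was 26039.7 (normal oxygen) and 27879.9 (hypoxia) for wt, and 28512 and 29476 for Ofd2Δ. The 29 large subunit targets had a median percentile of 97.2 and the 17 small subunit targets one of 95.3, and the ranges overlapped over most of their length (70.3 to 99.5 and 81.0 to 99.4). Targets differ in their probes, so this order is one of signal and not of mRNA abundance.

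The 4 brightest targets were rpp0, rps1601, rpl1601 and rps2. The signal of rpp0, which anchors the stalk that recruits translation factors, was 43857 in normal oxygen and 44542 in hypoxia in wt cells, against 46595 and 45492 in Ofd2Δ cells. That of rps1601, whose tail reaches the tRNA in the small subunit head, was 42146 in normal oxygen and 39947 in hypoxia in wt cells, against 42450.4 and 44087 in Ofd2Δ cells. Where 2 signals are given for a strain, normal oxygen comes first. Signals of rpl1601 were 36011 and 39700.0 in wt and 38582 and 44164 in Ofd2Δ, and those of rps2 were 39525 and 40158 in wt and 38884 and 34681 in Ofd2Δ. For rps2 the Ofd2Δ hypoxia array was the lowest, and for rpl1601 the highest. On the arrays in normal oxygen and in wt hypoxia 11 to 17 of the 644 spots of the 46 targets were at 60000 or more, near the top of the scanner range, and none was on the Ofd2Δ hypoxia array. The dimmest targets were rpl3801, rpl3402, rpl2501 and rpl1701. The signal of rpl3801 was 9056 in normal oxygen and 9833 in hypoxia in wt cells, against 9913 and 13069.9 in Ofd2Δ cells. The dimmest spot medians were still far above the control spots: the dimmest target had a raw median of 7236 or more on every array. The plot of signal by target shows that the points of the first 3 arrays nearly coincide and that those of the Ofd2Δ hypoxia array scatter on both sides of them.

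**Figure D1:**
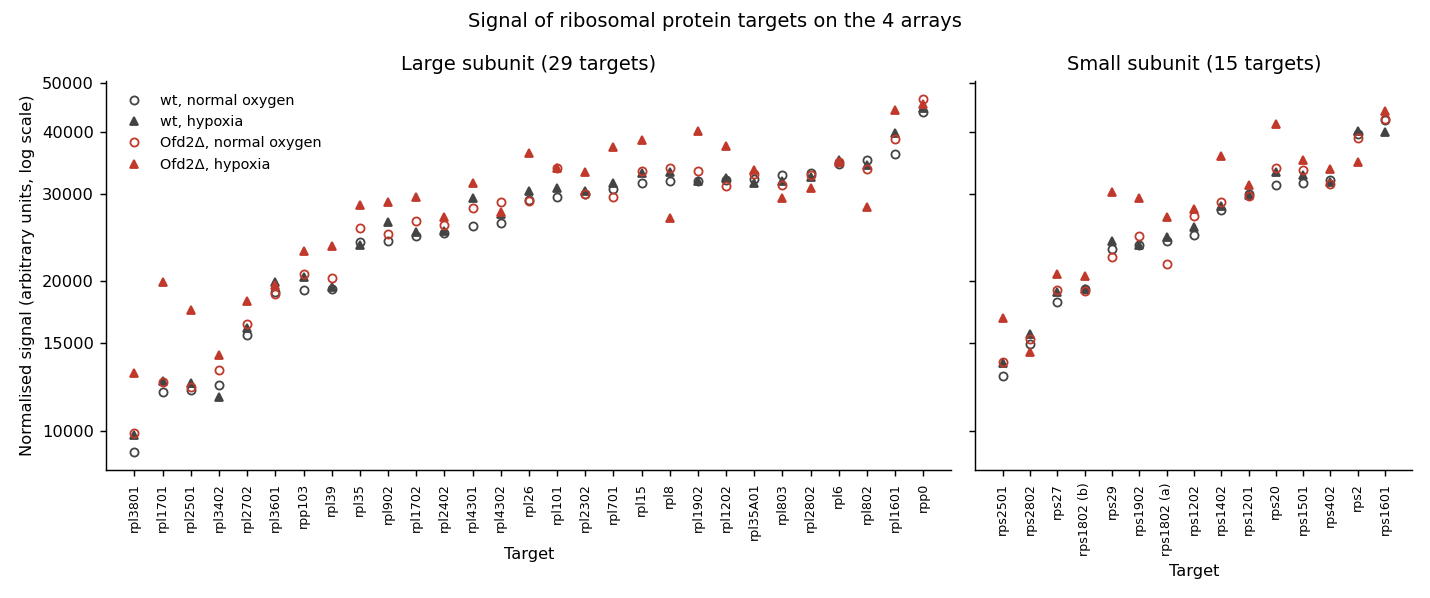
Normalised signal (arbitrary units, log scale) of the 29 large subunit targets and 15 of the 17 small subunit targets on the 4 arrays, in order of the wt signal in normal oxygen (grey, wt; red, Ofd2Δ; open circles, normal oxygen; filled triangles, hypoxia; rps1802 a and b are its targets SPCC1259.01c and SPCC825.06c). Each point is 1 array without replicate. The wt hypoxia points stay within 1.14-fold of the wt normal oxygen points, while the Ofd2Δ hypoxia points, from the array with another extraction date, lie further from the Ofd2Δ normal oxygen points, with mean block ratios of 0.795 (rpl8) to 1.62 (rpl1701).

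In wt cells the ribosomal protein transcripts stayed close to their normal oxygen level in hypoxia. Their hypoxia ratio had a median of 1.03 and ran from 0.947 to 1.14, against a median of 1.02 over all 4997 targets. Thus 34 of the 46 targets were above 1 (57% of all targets) and 12 below (43%). Counting changes from 1.2-fold upwards in either direction (1.2 or more, or its inverse or less), none was higher (6.74% of all targets) and none lower (7.86%). The spread of the members' log2 ratios, an SD of 0.05 over 46 targets, compares with 0.17 over the 1487 targets at least as bright as rpl3801. The median difference between the log2 ratios of the 2 blocks was 0.07, and 28 of the 46 ratios differed from 1 by no more than their own blocks differed from each other. In 21 targets the blocks lay on opposite sides of 1.

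The subunits had near-equal medians in wt, 1.03 over the 29 large subunit targets and 1.02 over the 17 small subunit targets, and 6 of each were below 1. The highest ratio was that of rpl4301, a zinc-binding protein of the large subunit, whose signal was 25848 in normal oxygen and 29418 in hypoxia in wt cells, against 28138 and 31544 in Ofd2Δ cells. Its wt hypoxia ratio was 1.14, with 1.15 and 1.13 in the blocks. After it came rpl1601 (1.10), rpl902 (1.09), rpl3801 (1.09) and rps20 (1.06). The signals of rpl902 were 24121 and 26295 in wt and 24886 and 28896 in Ofd2Δ. Those of rps20, a protein of the small subunit head, were 31275 and 33225 in wt and 33861 and 41479.9 in Ofd2Δ. Both were lowest in wt in normal oxygen and highest in Ofd2Δ in hypoxia. The lowest ratios were those of rpl3402 (0.947), rps1601 (0.948), rpl802 (0.975), rpl803 (0.976) and rpl35A01 (0.982), followed closely by rpl2802 (0.982). The signals of rpl35A01 were 32094 and 31514 in wt and 32938 and 33493 in Ofd2Δ, and its wt blocks lay on opposite sides of 1 (0.958 and 1.01). For rpl3402 the signals were 12388 and 11726 in wt and 13239 and 14217 in Ofd2Δ, and for rpl2802 they were 33031 and 32449 in wt and 32753 and 30776 in Ofd2Δ. For rps1601 both blocks were below 1 (0.939 and 0.956), and so they were for rpl3402 (0.973 and 0.921). Over every processing setting tried, 19 of the 46 targets stayed above 1 and 3 (rpl3402, rps1601 and rpl2802) below. The shares of all targets that stayed on one side of 1 in this way were not counted.

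In Ofd2Δ cells the hypoxia ratios of the same targets were spread more widely than in wt, and so were those of all targets. The members' SD of log2 ratios was 0.05 in wt and 0.19 in Ofd2Δ. It was 0.17 and 0.24 over the 1487 bright targets, and 0.24 and 0.32 over all targets. Whether the members' ratios lay above or below 1 as a group depended on how the arrays were scaled. With quantile normalisation the median was 1.11 (range 0.795 to 1.62), against 1.02 over all targets and 0.976 over the 1487 targets at least as bright as rpl3801. In the deposited value table the members' median was 0.950 and with each array scaled to its median it was 0.803. In all 3 scalings the members' median was above that of the 1487 bright targets, at 1.14, 1.04 and 1.04 times it. By count, 39, 26 and 30 of the 46 targets exceeded the bright targets' median. The bright set reaches down to rpl3801 at percentile 70.3, whereas the members' median percentile was 96.0. The 2 sets were thus not matched in brightness, and the part of this in the difference was not tested. The wt median was 1.03, 1.03 and 1.02 under the same scalings, as the plot of the ratios under 3 scalings shows.

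**Figure D2:**
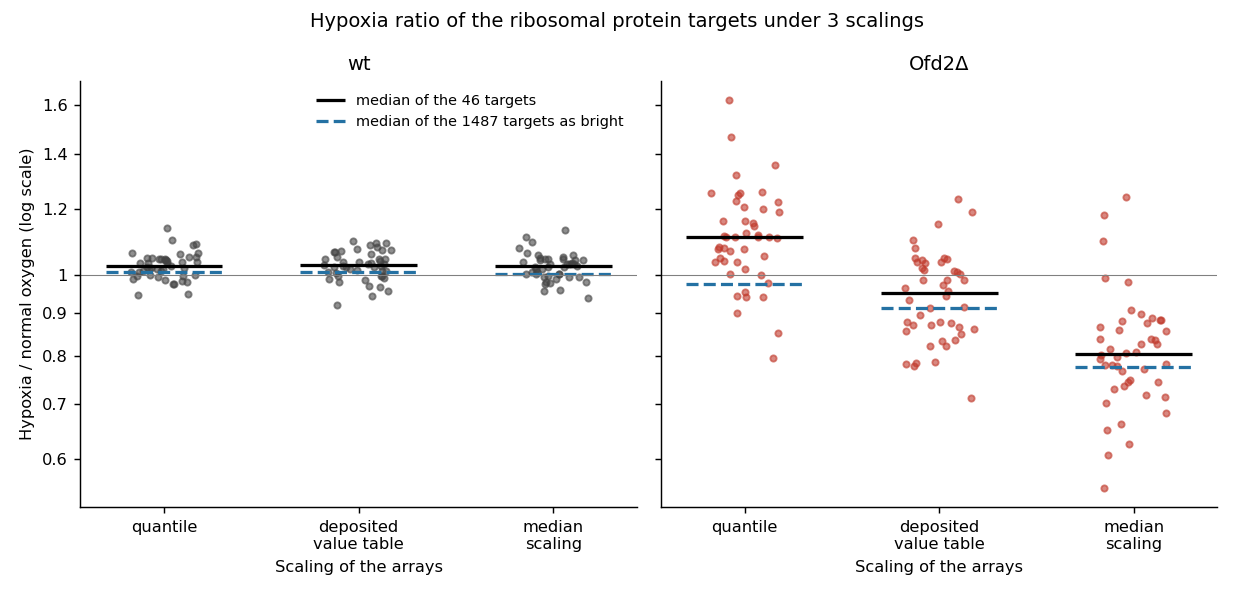
Hypoxia to normal oxygen ratio (log scale) of the 46 ribosomal protein targets (points) in wt and Ofd2Δ cells under 3 scalings of the arrays, with the members' median (black) and the median of the 1487 targets at least as bright as the dimmest of them (blue, dashed). The wt median stays between 1.02 and 1.03, whereas the Ofd2Δ median is 1.11 with quantile normalisation, 0.950 in the deposited value table and 0.803 with median scaling.

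Before scaling, the median brightness of the 644 spots of these genes was 31354 (normal oxygen) and 29949 (hypoxia) for wt, and 30586 and 13816 for Ofd2Δ. Relative to the median gene spot of the same array this was 4.16, 4.25, 4.64 and 3.45 times. The lower value on the last array goes with the narrower range of all its bright spots given above. The part of this narrower range in the members' ratios was not tested.

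With quantile normalisation 38 of the 46 targets had an Ofd2Δ hypoxia ratio above 1 (53.9% of all targets). A total of 12 were at least 1.2-fold higher, 26.1% of the members against 18.1% of all targets, and 1 was 1.2-fold lower (12.9%). In the deposited value table these counts were 1 higher (15.5% of all targets) and 7 lower (13.5%), and with median scaling 1 (25.5%) and 28 (27.1%). The 12 targets were 7 of the 29 in the large subunit (rpl1701, rpl2501, rpl3801, rpl701, rpl26, rpl1902 and rpl1202) and 5 of the 17 in the small subunit (rps29, rps1402, 1 target of rps1802, rps2501 and rps20). In only 4 of them, rpl1701, rpl3801, rpl701 and rps29, were both blocks past 1.2-fold (11% of all targets). The median log2 difference between blocks was 0.14 in Ofd2Δ, and it reached 0.76 for rpl3601 (1.36 and 0.802 in the blocks), so that the blocks lay on opposite sides of 1 around a mean ratio of 1.08.

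**Figure D3:**
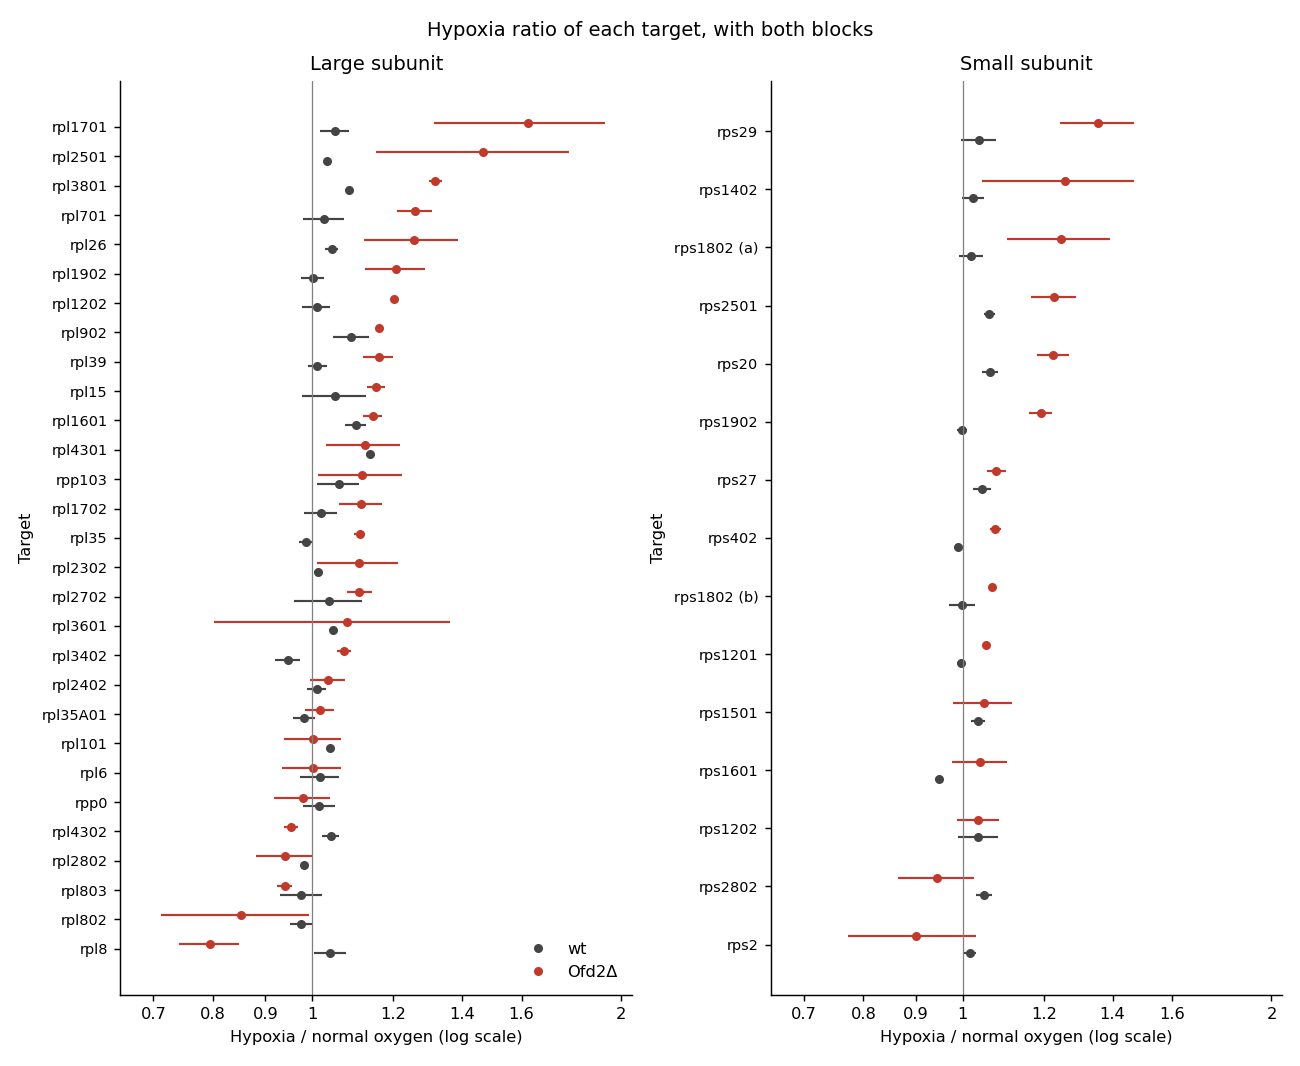
Hypoxia to normal oxygen ratio (log scale) of the 29 large subunit targets and 15 of the 17 small subunit targets in wt (grey) and Ofd2Δ cells (red) with quantile normalisation, in order of the Ofd2Δ ratio within each subunit. Points are means of the 2 blocks and bars join the blocks, which are technical repeats. The wt points lie between 0.947 and 1.14, and the Ofd2Δ points between 0.795 (rpl8) and 1.62 (rpl1701). The Ofd2Δ points as a group move below 1 in the deposited value table, where their median is 0.950.

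The ranges of the subunits' Ofd2Δ ratios overlapped, with medians of 1.11 for the large and 1.08 for the small subunit. In the deposited value table they were 0.933 and 0.958, and with median scaling 0.806 and 0.797. Thus the subunit with the higher median changed with the scaling. Single targets varied within each subunit with an SD of log2 ratios of 0.21 (large) and 0.15 (small), and the difference between the subunits was not tested.

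The small subunit gene rps29, for a zinc-binding protein of the subunit head, was the only one of the 46 targets with all 7 probes at least 1.2-fold higher in Ofd2Δ. Its signal was 23232 in normal oxygen and 24060.0 in hypoxia in wt cells, against 22396 and 30268 in Ofd2Δ cells. The first 3 values lie close together and the last stands above them. Its Ofd2Δ hypoxia ratio was 1.36 (1.24 and 1.47 in the blocks), against 1.04 in wt. Its Ofd2Δ probes ran from 1.31 to 1.55, whereas its wt probes ran from 0.969 to 1.15. In the deposited value table its ratio was 1.23, and it was the only one of the 46 targets past 1.2-fold upward there. With median scaling it was 0.982, so that its direction, too, depended on the scaling.

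The proteins lining the peptide exit tunnel of the large subunit had the highest Ofd2Δ ratios of the structural groups, as a description of groups drawn up after the values were known. Their 7 targets had a median of 1.21 and all were above 1, against 1.12 for the 3 targets of the factor-binding stalk and its base (rpp0, rpp103 and rpl1202) and 1.07 for the other 19 large subunit targets. The 13 targets of the small subunit head had 1.11 and the 4 of its body and platform 1.08. The deposited value table gave large subunit medians, in that order, of 1.01, 1.01 and 0.870, and with median scaling 0.856, 0.806 and 0.777. In wt they were 1.02, 1.02 and 1.04.

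Within that group rpl1701, whose protein reaches into the tunnel, had a signal of 11975 in normal oxygen and 12590.0 in hypoxia in wt cells, against 12539.8 and 19974 in Ofd2Δ cells. Its Ofd2Δ hypoxia ratio of 1.62 was the highest of the 46 and the only one past 1.5-fold (3.28% of all targets), but its blocks gave 1.32 and 1.93, its 7 probes ran from 0.977 to 2.24, and the deposited value table gave 1.01. In wt its ratio was 1.05. The signal of rpl2501, whose protein forms a docking site at the tunnel exit, was 12107 in normal oxygen and 12502 in hypoxia in wt cells, against 12244 and 17546 in Ofd2Δ cells. Its Ofd2Δ ratio was 1.47 with 1.15 and 1.78 in the blocks and 1.19 in the deposited value table, while its wt ratio was 1.03 although 1 of its 7 wt probes stood at 3.09. The other tunnel genes had Ofd2Δ ratios of 1.26 (rpl26), 1.21 (rpl1902), 1.16 (rpl39), 1.12 (rpl1702) and 1.11 (rpl35).

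The large subunit gene rpl3801, the dimmest of the set, had an Ofd2Δ ratio of 1.32 with blocks close together (1.30 and 1.34), all 7 probes above 1 (1.10 to 1.56) and 1.05 in the deposited value table. Its wt ratio was 1.09. Under every processing setting tried, only rpl1701 (1.01 to 1.93), rpl2501 (1.15 to 1.78) and rpl3801 (1.05 to 1.34) stayed above 1 in Ofd2Δ. These are also 3 of the 4 dimmest targets of the set, and the share of all targets that stayed above 1 was not counted. Over the 46 targets the Ofd2Δ log2 ratio ran against log2 signal with a Pearson's r of -0.417 and a Spearman's rho of -0.338, given as a description across genes that share the same arrays. In wt r was -0.172 and rho -0.206. Over the 1487 targets at least as bright as rpl3801, r was -0.0753 and rho -0.0839 in Ofd2Δ, and 0.0187 and 0.0144 in wt.

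At the lower end, rpl8, a large subunit protein unrelated to the rpl802 and rpl803 pair despite its symbol, had a signal of 31827 in normal oxygen and 33121 in hypoxia in wt cells, against 33849.6 and 26859 in Ofd2Δ cells. The Ofd2Δ hypoxia array is the lowest of the 4. Its Ofd2Δ ratio was 0.795 (0.742 and 0.849 in the blocks), none of its 7 probes was above 1 (0.700 to 0.937), and the deposited value table gave 0.783. Its wt ratio was 1.04. Under every setting tried rpl8, rpl802, rpl803 and rpl4302 stayed below 1 in Ofd2Δ, and rpl8 had the lowest value of the 46 under median scaling, at 0.555. The share of all targets that stayed below 1 throughout was not counted. The signals of rpl802 were 35147 and 34275 in wt and 33579 and 28223 in Ofd2Δ. The next lowest ratios were those of rpl802 (0.852), from the core of the peptidyl transferase centre, and rps2 (0.901), which lies at the mRNA entry of the small subunit. For rps2 the blocks differed in direction (1.03 and 0.773). After these came rpl803 (0.940) and rpl2802 (0.942).

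Single probes of the same target could disagree on the Ofd2Δ hypoxia array. For rpl802 the first 3 probes along the target gave 1.21, 1.22 and 1.32, and the other 4 gave 0.466, 0.758, 0.637 and 0.730. Its wt probes ran from 0.844 to 1.05. The highest probe of a target was a median of 1.67 times the lowest in Ofd2Δ and 1.21 times in wt. By place along the target, the members' median probe ratio in Ofd2Δ was 1.16, 1.18, 1.21, 1.15, 1.15, 1.02 and 1.02 from the first probe to the last. In wt it lay between 0.999 and 1.04, and over the 1487 bright targets in Ofd2Δ it lay between 0.949 and 1.00. The last 2 probes thus had the lowest Ofd2Δ medians in the members, which was not the case among the bright targets, where the fourth probe was lowest.

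**Figure D4:**
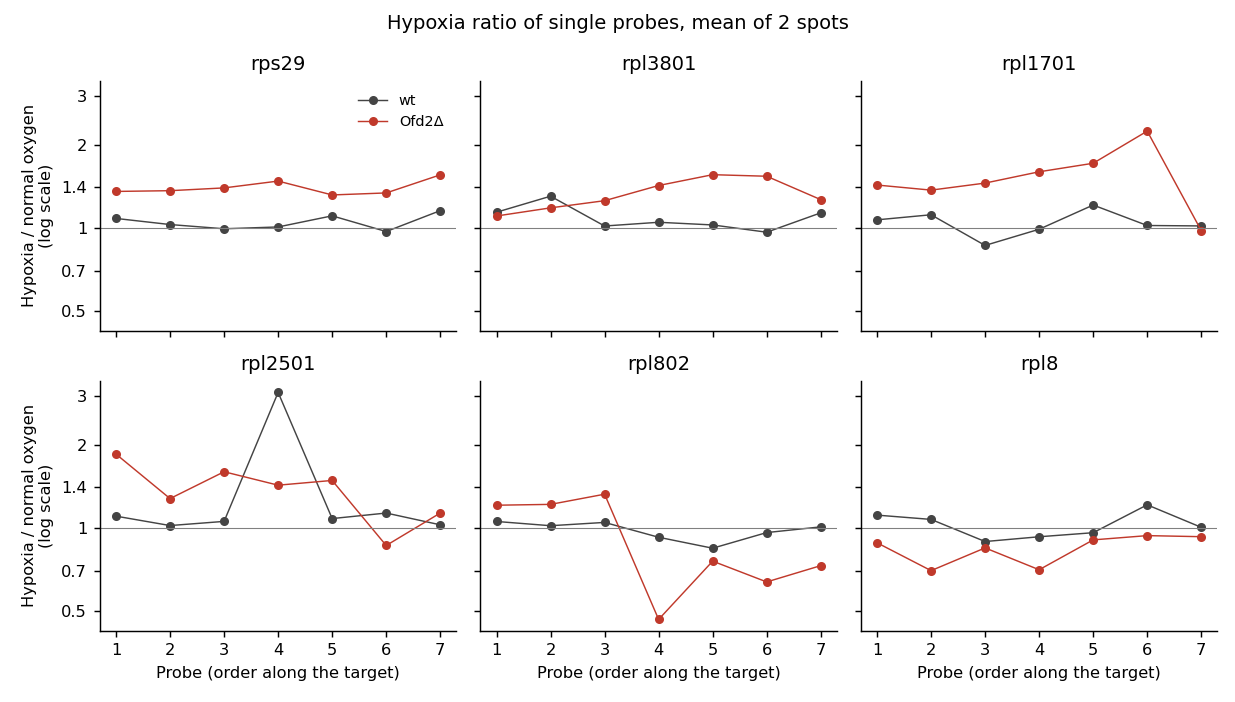
Hypoxia to normal oxygen ratio (log scale) of each of the 7 probes of 6 ribosomal protein targets, in their order along the target, in wt (grey) and Ofd2Δ cells (red) with quantile normalisation. Each point is the mean of the 2 spots of a probe on the log2 scale. All 7 Ofd2Δ points of rps29 lie between 1.31 and 1.55 and all those of rpl8 between 0.700 and 0.937, whereas those of rpl802 fall on both sides of 1.

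Of the 40 proteins or protein pairs represented, 5 had a pair of gene copies among the targets, and 4 of these pairs are described here. Their probes differ in name, but near-identical copies can share signal, which limits any difference between copies. In wt hypoxia the copies of these pairs differed by at most 1.09-fold. The rpl43 pair had ratios of 1.14 (rpl4301) and 1.04 (rpl4302), and the rps12 pair 0.995 (rps1201) and 1.04 (rps1202). The copies rpl802 and rpl803 were the closest, with 0.975 and 0.976, and the rpl17 pair had 1.05 and 1.02.

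In Ofd2Δ the copies of rpl17, the copies of rpl43, and rpl802 and rpl803 differed more than in wt, whereas the copies of rps12 did not. The signal of rpl1702 was 24714 in normal oxygen and 25174 in hypoxia in wt cells, against 26498 and 29523 in Ofd2Δ cells. The ratio of rpl1701 to rpl1702 signal was 0.485 and 0.500 in wt (normal oxygen, hypoxia) and 0.473 in Ofd2Δ in normal oxygen, but 0.677 in Ofd2Δ hypoxia. Their Ofd2Δ hypoxia ratios of 1.62 and 1.12 therefore differed by 1.45-fold, and by 1.11-fold in the deposited value table. Signals of rpl4302 were 26232 and 27346 in wt and 28890.4 and 27527 in Ofd2Δ. The copies of rpl43 lay on opposite sides of 1 in Ofd2Δ, at 1.12 for rpl4301 and 0.953 for rpl4302, and their blocks did not overlap (1.22 and 1.03 against 0.938 and 0.968). The deposited value table gave 0.933 and 0.711, a 1.31-fold difference in the same direction. For rpl802 (0.852) and rpl803 (0.940) the blocks overlapped. The signals of rpl803 were 32718 and 31887 in wt and 31311 and 29429.8 in Ofd2Δ, lowest in Ofd2Δ hypoxia as for rpl802. The copies of rps12, a protein of the small subunit beak, had near-equal ratios of 1.05 and 1.04. Signals of rps1201 were 30007 and 29861 in wt and 29717 and 31303 in Ofd2Δ, and those of rps1202 were 24832 and 25675 in wt and 27013 and 27942 in Ofd2Δ. The ratio of rps1201 was the higher one in the deposited value table, by 1.15-fold.

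**Figure D5:**
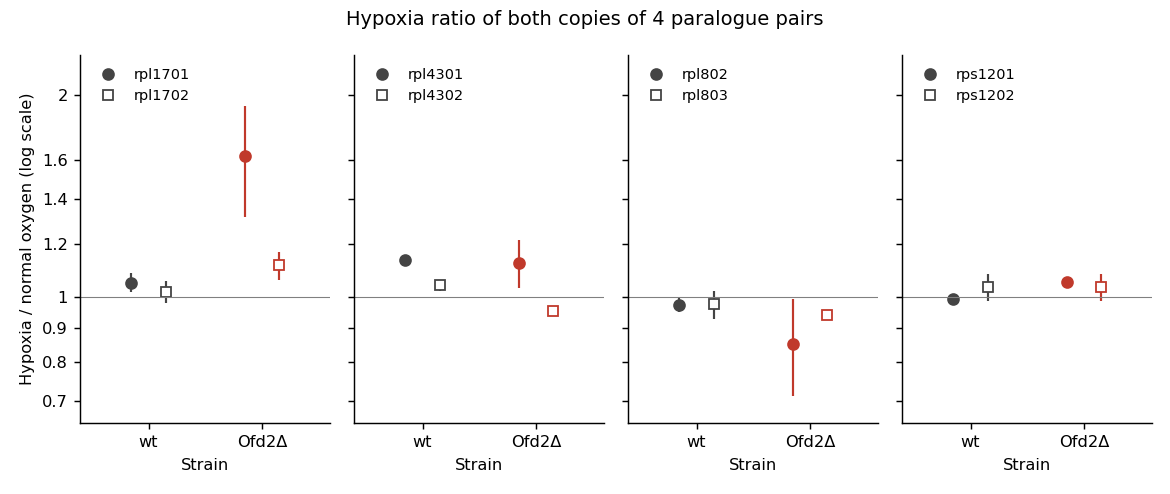
Hypoxia to normal oxygen ratio (log scale) of 4 pairs of ribosomal protein gene copies in wt (grey) and Ofd2Δ cells (red), with quantile normalisation (filled circles, first copy shown; open squares, second copy shown). Bars join the 2 blocks, which are technical repeats. The copies differ by at most 1.09-fold in wt and by 1.45-fold for rpl17 in Ofd2Δ, a difference that is 1.11-fold in the deposited value table.

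The 2 targets of rps1802 carry different probes for 1 gene symbol, of a protein of the small subunit head. Target SPCC1259.01c had a signal of 24065 in normal oxygen and 24521 in hypoxia in wt cells, against 21719.9 and 26924 in Ofd2Δ cells. Target SPCC825.06c had 19336 in normal oxygen and 19304 in hypoxia in wt cells, against 19151 and 20464 in Ofd2Δ cells. Their wt ratios were 1.02 and 0.999, and their Ofd2Δ ratios 1.25 and 1.07. Their Ofd2Δ ratios in the deposited value table were 1.15 and 0.872.

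In normal oxygen the strains had nearly the same levels of these transcripts. The Ofd2Δ over wt ratio had a median of 1.04 and ran from 0.903 to 1.15, with 31 of the 46 targets above 1 (52.8% of all targets). None was 1.2-fold higher (0.7% of all targets) or lower (1.28%). The highest was rpl101, the protein of the L1 stalk, with 1.15. The lowest was the SPCC1259.01c target of rps1802 with 0.903. This comparison uses 2 arrays with the same extraction date, and its median was 1.04 in the deposited value table and 1.11 with median scaling.

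In hypoxia the Ofd2Δ over wt ratio had a median of 1.10 with quantile normalisation, 0.950 in the deposited value table and 0.873 with median scaling. With quantile normalisation 39 of the 46 targets were above 1 (50.9% of all targets), 12 were 1.2-fold higher (12.6%) and 1, rpl8, was 1.2-fold lower (8%). There were 0 targets 1.2-fold higher in the deposited value table (6.96% of all targets) and 6 were lower (9.07%), and with median scaling 1 was higher (19.8%) and 16 were lower (21.1%). The Ofd2Δ hypoxia ratio divided by the wt ratio was largest for rpl1701 (1.54), rpl2501 (1.42), rps29 (1.31), rps1402 (1.23) and rpl701 (1.23). This order depended on the scaling, since the same quotients were 0.950, 1.08, 1.18, 1.08 and 0.969 in the deposited value table, where rpl1701 and rpl701 lay below 1. Signals of rps1402, from the platform of the small subunit, were 27765 and 28414 in wt and 28886 and 35773 in Ofd2Δ, and those of rpl701 were 30694 and 31476 in wt and 29556 and 37177 in Ofd2Δ. The quotient was smallest for rpl8 (0.764), rpl802 (0.874), rps2 (0.887), rps2802 (0.900) and rpl4302 (0.914), and in the deposited value table these were 0.780, 0.757, 0.790, 0.919 and 0.712. Signals of rps2802 were 14955 and 15696 in wt and 15346 and 14444 in Ofd2Δ. The strain comparison in hypoxia and the 2 hypoxia ratios share arrays, so these orders are not independent of those above.

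Several of the genes are neighbours on their chromosome. The neighbours rpl701 and rps1402 had Ofd2Δ ratios of 1.26 and 1.26, and rps1601, on the other side of rps1402, had 1.04. The neighbours rps29 and rps27 had 1.36 and 1.08, rpl35 and rpl902 had 1.11 and 1.16, and rps2 and rps20 had 0.901 and 1.23. Both close and distant ratios thus occurred among neighbours.

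Other genes of protein synthesis were described on the same arrays from lists by symbol. In wt hypoxia the 29 named targets for ribosome biogenesis factors, which assemble the subunits in the nucleolus, had a median of 0.940, with 3 above 1 and none past 1.2-fold in either direction (6.74% of all targets higher and 7.86% lower). In Ofd2Δ their median was 0.872 (0.929 in the deposited value table), and 11 of the 29 were 1.2-fold lower (12.9% of all targets) and 0 higher (18.1%) with quantile normalisation. With the deposited values 9 were lower (13.5% of all targets) and 1 higher, ipi1 at 1.58, named here after its value was seen (15.5%). The lowest in both strains was sda1, needed for export of the large subunit, at 0.846 in wt and 0.676 in Ofd2Δ. The highest were tsr2 in wt (1.07) and nop52 in Ofd2Δ (1.09). The 9 targets for translation factors (median signal percentile 92.8) had median ratios of 1.02 (wt) and 0.948 (Ofd2Δ). None was past 1.2-fold with quantile normalisation. Of all targets, 6.74% were higher and 7.86% lower in wt, and 18.1% and 12.9% in Ofd2Δ. The 9 ratios ran from 0.909 (tif6) to 1.09 (tif1102) in wt. In Ofd2Δ they ran from 0.873 (eft202, an elongation factor that moves the ribosome along the mRNA) to 1.09 (tif1102). With the deposited values eft202 (0.690) and tif6 (0.767) were 1.2-fold lower in Ofd2Δ (13.5% of all targets) and 0 were higher (15.5%). The 3 RNA polymerase I subunits had medians of 0.997 and 1.10, and the 22 targets of the mitochondrial ribosome 0.999 and 1.05. In the deposited value table the Ofd2Δ medians were 0.974 for RNA polymerase I and 1.07 for the mitochondrial ribosome. The mitochondrial ribosome thus lay above the cytosolic ribosomal protein median there (0.950), but below it with quantile normalisation (1.11). With quantile normalisation 1 of these 22 targets was 1.2-fold higher and 2 were lower in wt, and 4 were higher and 2 lower in Ofd2Δ. The shares of all targets were 6.74% and 7.86% in wt and 18.1% and 12.9% in Ofd2Δ. In Ofd2Δ the cytosolic ribosomal proteins had a higher median than the translation factors with quantile normalisation (1.11 and 0.948) and in the deposited value table (0.950 and 0.871), a difference that was not tested.

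A further target, whose name is spelt SPPCC1223.05c in the tables and is there described as a large subunit protein, matched no symbol and was not counted. Its signal was 11090.2 and 10777 in wt and 11349 and 13260.2 in Ofd2Δ, with hypoxia ratios of 0.972 in wt and 1.17 in Ofd2Δ, within the range of the members in both strains.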

How the data were processed

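Transcript levels were measured on 4 single-channel arrays, 1 per condition, with RNA of 2 experiments pooled before labelling, so p-values, SDs and tests over samples were not possible. The authors deposited, for each array, the raw (linear, not normalised) intensity of each 60-base probe, read from the scan by NimbleScan 2.4.31. They also deposited a value table that holds 2 normalised intensity values per target, linear and in whole numbers. RMA is named for it in the submitters' processing notes, without a version. Its column medians are 5447 and 5379 in normal oxygen (wt and Ofd2Δ) and 5440.0 and 5726 in hypoxia. Which arrays were scaled together for it, and which of its values belongs to which block, are not given in the sources used here.

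The RMA convolution model, fitted on all spots, removed background from the probe intensities. Gene spots of the 4 arrays were then quantile-normalised, and a median polish of their log2 values summarised each target in each block. Each ratio is the arithmetic mean of the 2 block ratios. A level is the mean log2 value of the blocks, back on the linear scale. Single-probe ratios use the mean log2 ratio of the 2 spots of a probe. Changes were counted at 1.2-fold and 1.5-fold without a test. The value table, median scaling, other backgrounds (none, or normexp of limma 3.58.1 with offset 50), quantile normalisation within each strain, a plain mean of probes, removal of spots at 60000 or more and each block alone served as alternatives. The steps were tested on simulated data. Software was Python 3.11.15 (scipy 1.17.1, numpy 2.4.6, matplotlib 3.10.9, pandas 2.3.3) and R 4.3.3. The number of arrays limits the precision.

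Names came from the study's gene tables and, for symbols and neighbouring genes, from the RefSeq annotation of assembly ASM294v3. Its gene starts served only to put genes in order along each chromosome. Any member could be named. Groups of genes by place in the ribosome were drawn up after the values were seen. The fold changes in the study's own tables were not used. Translation factors, ribosome biogenesis factors, RNA polymerase I and the mitochondrial ribosome were listed by symbol, and 3 symbols that fission yeast uses for other proteins (drs1, rlp1 and dim1) were left out of the second list. Signals on every array are given for the members with the 5 highest and 5 lowest hypoxia ratios in each strain, the 5 largest and 5 smallest strain differences in that ratio, the 4 brightest and 4 dimmest, both copies of each pair, and members past 1.5-fold. For 1 of the pairs the values are not reported here by name, although they enter all counts and medians. Members, gene lists and rules were chosen with earlier results of these data known. No probe, promoter or protein sequences were used here, so the planned search for promoter motifs was not run.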

Additional observations from a re-analysis of the deposited data

Results flagged for a closer look

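In 4 targets both blocks of the wt hypoxia ratio lay on one side of 1 and both blocks of the Ofd2Δ ratio on the other, with 1 array per condition, so the difference was not tested. The Ofd2Δ ratio divided by the wt ratio was 0.764 for rpl8, 0.914 for rpl4302, 1.09 for rps402 and 1.13 for rpl3402. The first 2 lay above 1 in wt and below 1 in Ofd2Δ, and the last 2 the opposite way. In the deposited value table the quotients were 0.780, 0.712, 0.871 and 1.00, so that of rps402 lay on the other side of 1 there, and that of rpl3402 was close to 1.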

How the results depend on the processing

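The wt medians moved by less than the difference between blocks under every setting tried, and 1 target was 1.2-fold higher, against 0, with a plain mean of probes. In 95 of 114 comparisons of the summary values with an alternative, the value moved by less than an SD taken from the blocks, or, for counts, within 1.5 times. That SD was the members' median log2 difference between blocks divided by the square root of 2. The Ofd2Δ hypoxia ratio changed direction with the scaling of the arrays. With median scaling its median was 0.803 over all members, 0.806 for the large and 0.797 for the small subunit, with 1 target 1.2-fold higher and 28 lower. In the deposited value table it was 0.950, 0.933 and 0.958, with 1 higher and 7 lower. Of the 1487 targets at least as bright as rpl3801, 68.2% were 1.2-fold lower with median scaling and 25.1% in the deposited value table. The Ofd2Δ over wt median in hypoxia became 0.873 with median scaling and 0.950 in the value table, and in normal oxygen it was 1.11 with median scaling. Quantile normalisation within each strain gave 0.726 in normal oxygen and 0.780 in hypoxia, where the median of all targets itself shifted to 0.721 and 0.724, by construction. The count of targets 1.2-fold lower in Ofd2Δ went from 1 to 2 with bright spots left out and in each block alone. The targets were not the same in the blocks: rpl8 (0.742) and rpl802 (0.711) in block 1, and rps2 (0.773) and rpl3601 (0.802) in block 2. Without the Ofd2Δ hypoxia array in the normalisation, an alternative chosen after seeing the data, the wt median was 1.02 and the strain median in normal oxygen 1.02. Without the dimmest targets (below percentile 25 in signal) the share of all targets 1.2-fold higher in wt was 4.38%, against 6.74%. The causes were not tested. No paired analysis was possible because each group has 1 array. The members were far above the control spots on every array, whereas 11 to 17 of the members' 644 spots on 3 arrays were at 60000 or more, near the top of the scanner range.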
